A study of Mus musculus domesticus with 18 samples.

Results

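The acute phase proteins and the cytokine receptors, signalling proteins and transcription factors that induce them were examined in the livers of wild house mice from high and from low altitude. The set held 34 genes, chosen by symbol. All 34 had at least 1 probe set that names a single gene, so 34 of the 18193 named genes of the array were followed, each by its brightest such probe set on average. The 9 high altitude mice were wild male Mus musculus domesticus trapped in La Paz, Bolivia, at 3600 m, and the 9 low altitude mice were wild males of the same subspecies trapped in Lima, Peru, at 100 m. Each altitude had 3 trapping locations, called A, B and C within that altitude, with 3 mice per location and 1 array of liver RNA per mouse. Locations of the same letter at the 2 altitudes are different places, and the mice of high location A are numbered 1, 2 and 4. Altitude coincided with city and mouse population, which cannot be told apart in this design. The labels give no ages, treatments or health records, and they list C57BL/6J as the strain although their titles and sources describe wild animals.

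The acute phase response is the change in plasma proteins that the liver makes after infection, injury or inflammation. Interleukin-6 binds its receptor Il6ra together with the shared subunit Il6st (gp130) on hepatocytes and activates the transcription factor Stat3, while interleukin-1, through Il1r1, and tumour necrosis factor act through NF-kB and C/EBP factors. Hepatocytes then secrete more serum amyloid A, orosomucoids, haptoglobin, haemopexin, fibrinogen and protease inhibitors, and feedback proteins such as Socs3 and Nfkbia limit the signal. In mice the serum amyloids are strongly inducible, whereas C-reactive protein, a leading acute phase protein in humans, responds little.

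Values are log2 levels from RMA, a method that corrects background, normalizes arrays to each other and summarises the probes of a probe set. A difference of 1 on this scale is a doubling within 1 probe set. Levels of different probe sets are compared only as ranks from dim to bright. Of the 34 genes, 33 had a level higher than the array's median gene, and the exception was Ccl2. All 10 hepatocyte markers measured were above that median. The 34 genes varied widely among mice: their median SD over the 18 mice was 0.47, against 0.19 over all named genes, and 20 of the 34 were in the top 10% of genes by SD. The median standard error of a difference between altitudes was accordingly 0.20 for these genes, against 0.087 for all genes. Array medians lay between 5.25 and 5.36 at high altitude and between 5.24 and 5.36 at low altitude. The Actb 3 prime minus 5 prime difference, a sign of RNA integrity, ran between 0.844 and 2.02 at high altitude, with a median of 1.36, and between 0.975 and 1.45 at low altitude, with a median of 1.16. The labels do not say more about the mice of a location. Limma's p-values weigh a difference against the spread among these 18 animals, and those of gene pairs come from permuting the animals. With 1 city per altitude, the spread between cities does not enter them.

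The first comparison asked whether acute phase gene expression in liver differed between high and low altitude mice. In limma's test with location as a random block, 0 of the 34 genes passed an adjusted p of 0.05, against 0.363% of all named genes. The block used 1 correlation for all genes, 0.00586, so mice of a location counted almost as independent animals. This holds also for genes that differed between locations. At an unadjusted p under 0.05, 3 of the 34 genes were counted, all higher at high altitude, against 11.5% of all genes in either direction, so the share was near the background. The high altitude mean was above the low altitude mean for 21 genes and below it for 13, with a median log2 difference of 0.037, against 0.0044 over all genes. All 3 high location means lay on 1 side of all 3 low location means for 3 of the 34 genes, against 14.6% of all genes, and in 0 of the 34 did all 9 high altitude mice lie on 1 side of all 9 low altitude mice.

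The 3 genes with an unadjusted p under 0.05 were an interleukin-6 receptor chain, an inhibitor of NF-kB and a haem carrier. Il6ra, the chain that binds interleukin-6, had a lowest, median and highest level of 8.72, 9.11 and 9.60 at high altitude, against 7.74, 8.83 and 9.30 at low altitude. The groups overlapped, but each of the 3 high location means, 9.09 in A, 9.42 in B and 8.995 in C, was above each of the low location means, 8.81 in A, 8.78 in B and 8.41 in C. The log2 difference was 0.50 ± 0.17 (SE, n = 9 each), which is 1.41-fold, and limma gave an adjusted p of 0.227. Another probe set of the gene above the median level averaged 7.21 at high altitude and 7.25 at low altitude, so the difference was not seen there.

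Nfkbia encodes the protein that holds NF-kB in the cytoplasm and is itself switched on by NF-kB. Its lowest, median and highest levels were 11.69, 12.13 and 12.59 at high altitude, against 11.35, 11.78 and 12.12 at low altitude. The median high altitude mouse was above the highest low altitude mouse, and the location means were 12.15, 12.14 and 11.91 in high A, B and C, against 11.55, 11.68 and 11.88 in low A, B and C. The log2 difference was 0.36 ± 0.13 (SE, n = 9 each; limma, adjusted p = 0.238). Its other 4 probe sets gave differences between 0.11 and 0.37, all with the same sign.

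Hpx encodes haemopexin, which carries free haem to the liver. Its lowest, median and highest levels were 14.11, 14.25 and 14.47 at high altitude, against 13.92, 14.09 and 14.28 at low altitude, with a log2 difference of 0.18 ± 0.06 (SE, n = 9 each; limma, adjusted p = 0.239). Mice of high location A held the 3 highest levels, 14.42, 14.40 and 14.47. Its probe set was at percentile 99.96 of all genes by level. Whether its signal was near the array's upper limit, where differences are compressed, was not tested.

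**Figure D1:**
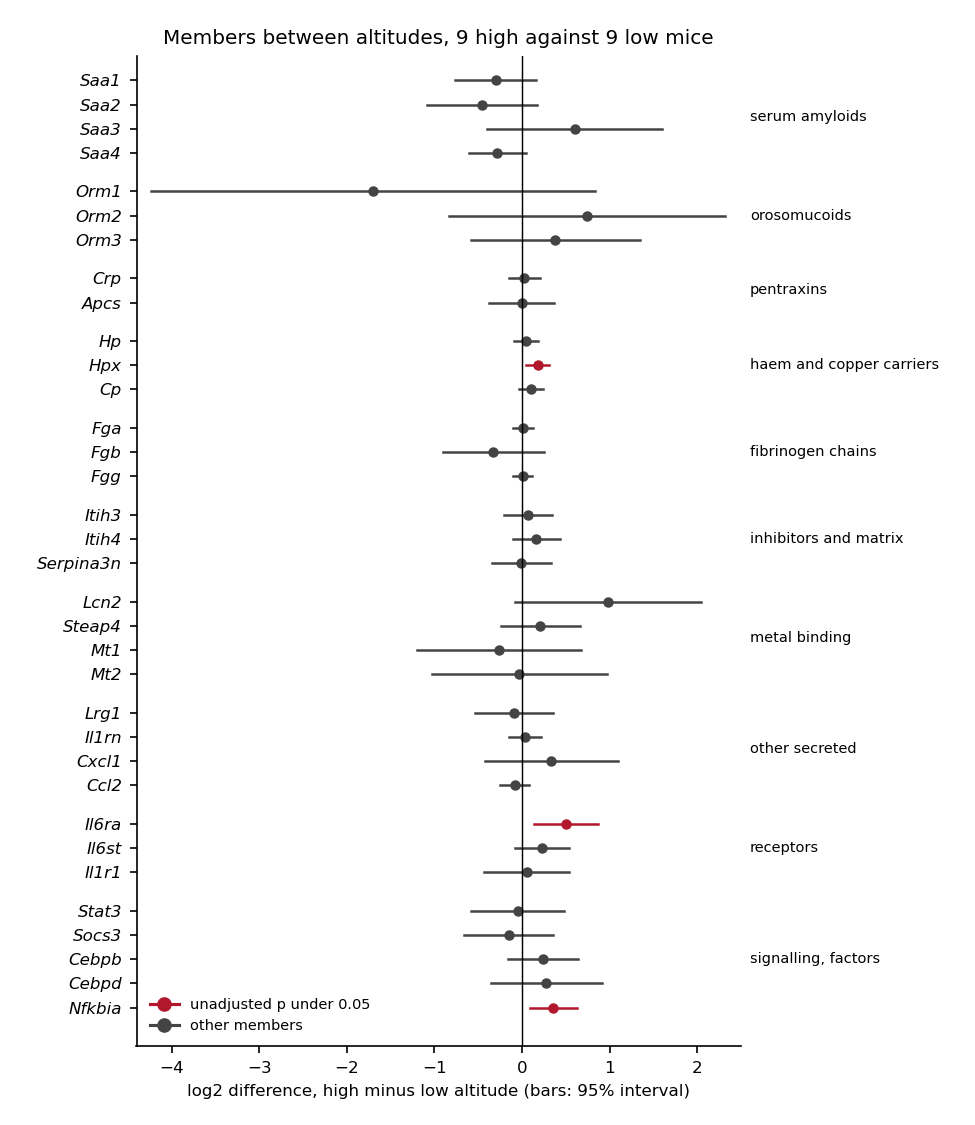
The 34 genes are listed down the page by role, and the horizontal axis gives the log2 difference of high minus low altitude, with points for the estimate and bars for its 95% interval (9 mice per altitude). Il6ra, Nfkbia and Hpx, in red, have intervals above 0, and Orm1 has the widest interval, -4.24 to 0.83.

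Serum amyloid A proteins are carried in high density lipoprotein, and their genes sit side by side in the genome (RefSeq, assembly GRCm38.p6). The mainly hepatocyte forms Saa1 and Saa2 averaged 13.60 ± 0.54 and 12.52 ± 0.71 at high altitude and 13.90 ± 0.50 and 12.97 ± 0.69 at low altitude (SD, n = 9 each), with log2 differences of -0.30 ± 0.22 and -0.45 ± 0.30 (SE). Saa4, a form made constitutively, differed by -0.28 ± 0.15 (SE), with means of 13.13 at high altitude and 13.41 at low altitude. Saa3, which in mice is made by macrophages as well as by stimulated hepatocytes, had the opposite sign: its lowest, median and highest levels were 9.46, 10.72 and 11.93 at high altitude, against 8.49, 9.77 and 11.79 at low altitude, a log2 difference of 0.60 ± 0.48 (SE). The adjusted p from limma of these 4 genes lay between 0.519 and 0.703.

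Orosomucoids are plasma carrier proteins encoded by 3 neighbouring and similar genes, so probes may share signal between them. Orm1 had a lowest, median and highest level of 3.83, 12.72 and 13.74 at high altitude, against 11.64, 12.96 and 13.57 at low altitude. The log2 difference of -1.70 ± 1.21 (SE, limma, adjusted p = 0.655) was 0.24 without high location A, which holds 2 mice with levels of 4.13 and 3.83. Orm2 ran between 8.38 and 11.84 at high altitude, with a median of 10.36, against 6.15 to 13.46 at low altitude, with a median of 9.16. The low altitude range enclosed all 9 high altitude mice, and the difference was 0.74 ± 0.76 (SE, limma, adjusted p = 0.794). Orm3 had a lowest, median and highest level of 6.53, 8.58 and 9.82 at high altitude, against 6.25, 7.78 and 9.90 at low altitude, a difference of 0.38 ± 0.46 (SE).

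The other plasma proteins differed between altitudes by less than their SD over the 18 mice. Haptoglobin (Hp), which binds free haemoglobin, differed by 0.04 ± 0.07, and the copper carrier and ferroxidase Cp by 0.10 ± 0.06 (SE). Of the 3 fibrinogen chains, Fga and Fgg each differed by 0.01 ± 0.05 (SE), with SDs over the 18 mice of 0.095 and 0.089. The probe sets of Hp, Fga and Fgg lay between percentiles 99.90 and 99.97 of all genes by level, and whether their signal was near the array's upper limit, where differences are compressed, was not tested. Fgb, the chain encoded beside them, had levels between 12.43 and 13.83 at high altitude and between 11.70 and 14.01 at low altitude, and it differed by -0.33 ± 0.28 (SE). The pentraxins Crp and Apcs differed by 0.03 ± 0.09 and -0.0035 ± 0.18 (SE). Among protease inhibitors and matrix binding proteins, Itih3 differed by 0.07 ± 0.13, Itih4 by 0.16 ± 0.13 and Serpina3n by -0.01 ± 0.16, and the secreted glycoprotein Lrg1 by -0.09 ± 0.21 (SE). Adjusted p-values from limma of these 11 genes lay between 0.590 and 0.998.

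Lcn2 encodes lipocalin 2, which withholds iron from bacteria by binding their siderophores. Its lowest, median and highest levels were 10.16, 11.54 and 13.16 at high altitude, against 8.66, 10.84 and 12.97 at low altitude. The groups overlapped over most of their range, and the log2 difference of 0.98 ± 0.51 (SE, 1.97-fold) had an adjusted p of 0.486 in limma's test. The metalloreductase gene Steap4 differed by 0.21 ± 0.22 (SE). Metallothioneins bind zinc and copper. Mt1 had a lowest, median and highest level of 10.94, 13.09 and 14.47 at high altitude, against 12.56, 13.53 and 13.96 at low altitude, and Mt2 had 10.25, 12.37 and 14.03 at high altitude, against 10.91, 12.61 and 13.36 at low altitude. For both genes the high altitude range enclosed the low altitude range, and the differences were -0.26 ± 0.45 and -0.03 ± 0.48 (SE). Another probe set of Mt1 above the median level had the opposite sign, with a difference of 0.33. Adjusted p-values from limma of Orm3, Steap4, Mt1 and Mt2 lay between 0.801 and 0.990.

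Among signalling genes, the shared receptor subunit Il6st differed by 0.23 ± 0.15 and the interleukin-1 receptor Il1r1 by 0.05 ± 0.23 (SE). Other probe sets of Il6st above the median level differed by -0.01, 0.16 and -0.08. The transcription factors Stat3, Cebpb and Cebpd differed by -0.05 ± 0.26, 0.24 ± 0.19 and 0.28 ± 0.30, and Socs3, the feedback inhibitor of gp130 signalling, by -0.15 ± 0.25 (SE). The decoy ligand gene Il1rn differed by 0.03 ± 0.09, the neutrophil chemokine gene Cxcl1 by 0.34 ± 0.36 and the monocyte chemokine gene Ccl2 by -0.08 ± 0.08 (SE). Cxcl1 had a lowest, median and highest level of 7.52, 8.66 and 9.84 at high altitude, against 7.32, 7.96 and 10.02 at low altitude, and the highest mouse of all was low B2. Adjusted p-values from limma of these 9 genes lay between 0.601 and 0.971.

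The wider pathway was read from 6 further gene lists, and 3 of their genes passed the altitude test, which called 0.363% of all genes. With 1 mean per location, a design of 3 against 3, 0 of the named genes passed. Of 19 other positive acute phase genes measured, 1 was called higher and 0 lower: Cd14, a lipopolysaccharide receptor, averaged 8.41 ± 0.33 at high altitude and 7.33 ± 0.62 at low altitude (SD, n = 9 each; limma, adjusted p = 0.0292). In the same list Serpina1b, Kng1 and Lbp differed by -0.15, 0.24 and 0.37, with adjusted p between 0.202 and 0.280, and the list's median difference was 0.056. At an unadjusted p under 0.05, 5 of the list were higher and 1 lower, against 11.5% of all genes in either direction. Of 22 genes of interleukin-6 family and JAK-STAT signalling, 1 was called higher and 0 lower: Socs2, an inhibitor of growth hormone and cytokine signalling, averaged 8.38 ± 1.196 at high altitude and 6.26 ± 0.92 at low altitude (SD, n = 9 each; limma, adjusted p = 0.0437). Pias1, Lifr and Il6 itself differed by 0.24, -0.59 and 0.14, with adjusted p between 0.124 and 0.316. Il6 averaged 3.24 at high altitude and 3.10 at low altitude, close to the level of the dimmest probe sets. Of this list 3 genes were higher and 1 lower at an unadjusted p under 0.05.

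Of 27 genes of interleukin-1, tumour necrosis factor and NF-kB signalling, 1 was called higher and 0 lower. This was Irak3, a kinase-like protein that damps interleukin-1 and Toll-like receptor signalling, at 5.49 ± 0.62 at high altitude and 4.47 ± 0.27 at low altitude (SD, n = 9 each; limma, adjusted p = 0.0312). The Irak3 probe set was dim, with a mean of 4.98 against 6.31 for the median gene. Another probe set of Irak3 averaged 4.46. Irak2, Myd88 and the NF-kB feedback gene Tnfaip3 differed by -0.66, 0.32 and 0.69, with adjusted p between 0.0965 and 0.176, and 5 of the 27 genes were higher and 1 lower at an unadjusted p under 0.05. In the remaining lists 0 genes passed limma's test. Those with an unadjusted p under 0.05 were 2 of 13 negative acute phase proteins, 0 of 14 glucocorticoid response genes and 2 of 9 other metal response genes. Over all genes, 0.363% passed and 11.5% had an unadjusted p under 0.05, in either direction. The smallest p in these lists belonged to Fetub, a negative acute phase protein of the liver, which differed by 0.55 (limma, adjusted p = 0.107), and next among negative acute phase genes was Apoa4 at -0.28 (adjusted p = 0.428). Fkbp5 and Cdkn1a headed the glucocorticoid list with differences of 0.34 and 0.85 (adjusted p = 0.601 and 0.657), and Mtf1, the zinc sensing factor, and Slc39a14, a zinc and iron importer, headed the metal list with 0.16 and 0.37 (adjusted p = 0.353 and 0.356).

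Cd14 and Irak3 are also expressed by macrophages and other leukocytes, whose markers were compared between altitudes in the same fit. Of 14 Kupffer cell and macrophage markers, 13 had a higher mean at high altitude, by a median of 0.30, with 5 at an unadjusted p under 0.05 and 0 called. Their mean per mouse ran between 8.53 and 9.92 at high altitude, against 8.43 to 9.55 at low altitude. Of 12 T and NK cell markers, 10 were higher, by a median of 0.30, with 7 at an unadjusted p under 0.05 and 0 called. Of 8 B and plasma cell markers, 6 were higher, by a median of 0.13, and 2 were called, the immunoglobulin genes Jchain and Ighm. Of 5 monocyte markers, 4 were higher, by a median of 0.28, with 0 called. Of 10 neutrophil markers, 7 were higher, by a median of 0.075, with 0 called. Above the median gene were 3 of the 12 T and NK cell markers and 2 of the 8 B and plasma cell markers. For monocyte and neutrophil markers these counts were 3 of 5 and 4 of 10. Hepatocyte markers were lower in 7 of 10, with a median of -0.042. Over all genes, 51.6% were higher, 11.5% had an unadjusted p under 0.05 in either direction and 0.363% were called. The part of these cell types in the Cd14 and Irak3 differences was not tested.

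Trapping locations were then compared within each altitude. At low altitude, location B had the highest mean for Saa3, Lcn2, Orm2, Steap4, Itih4, Il1rn and Hpx, the 7 genes with an unadjusted p under 0.05 there. In limma's F test over the 3 low locations, 1 of the 34 genes, Saa3, passed an adjusted p of 0.05, against 0.0715% of all genes, and 7 of 34 had an unadjusted p under 0.05, against 6.68% of all genes. At high altitude, 0 of the 34 genes passed, against 0.302% of all genes, and 9 of 34 had an unadjusted p under 0.05, against 8.91% of all genes. The mean of low B was above the mean of the other low locations for 27 of the 34 genes (median log2 difference 0.24), against 50.2% of all genes. The mean of high B was above the others for 25 of 34 (median 0.29), against 52.1% of all genes, and that of high A for 16 of 34, against 44.8%. These single locations were picked out after their values were seen, so such counts are descriptions.

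Saa3 had levels of 11.56, 11.77 and 11.79 in the 3 mice of low B, against 9.77, 9.09 and 8.82 in low A and 8.49, 9.0 and 9.88 in low C. The 3 mice of low B lay close to each other and above all other low altitude mice. The log2 difference of low B minus the mean of A and C was 2.53, or 5.78-fold (limma F test, adjusted p = 0.0362). At high altitude Saa3 was 10.72, 11.93 and 11.63 in A, 11.22, 9.64 and 10.27 in B, and 9.996, 10.72 and 9.46 in C (adjusted p = 0.384). The low altitude call was lost, with an adjusted p between 0.0540 and 0.154, when any 1 of the mice high A2, high B3, high C1, low A2, low A3, low B1, low B2, low B3, low C1 or low C2 was left out.

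Lcn2 was also highest in low B, without passing the test. It stood at 12.97, 11.22 and 12.24 in low B, against 9.56, 10.89 and 8.66 in low A and 9.54, 9.84 and 10.84 in low C (limma, adjusted p = 0.282). Every mouse of low B was above every other low altitude mouse, and low B minus the mean of A and C was 2.25. At high altitude Lcn2 was 13.16, 12.70 and 12.07 in A, 11.99, 10.16 and 11.33 in B, and 11.54, 10.57 and 11.05 in C (adjusted p = 0.439). Here the 3 mice of high A were the highest, by 1.53 on average over the other high locations.

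Orm2 was 13.46, 9.47 and 11.98 in low B, against 9.87, 8.65 and 7.64 in low A and 8.41, 6.15 and 9.16 in low C (limma, adjusted p = 0.392). The difference of 3.32 was the widest of the 34 genes between low B and the other low locations, but mouse B2 lay below mouse A1. At high altitude it was 11.47, 10.36 and 11.18 in A, 11.84, 8.74 and 10.61 in B, and 8.38, 9.58 and 9.33 in C. Steap4 was 11.19, 11.14 and 11.36 in low B, against 10.43, 10.42 and 10.28 in low A and 10.45, 10.36 and 10.48 in low C (adjusted p = 0.542). The mean of low B was 0.83 above that of the other low locations, whose 6 mice lay close together. At high altitude Steap4 was 11.62, 11.08 and 10.72 in A, 11.50, 10.32 and 11.45 in B, and 9.96, 10.61 and 10.73 in C (adjusted p = 0.528).

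Itih4, an inter-alpha-trypsin inhibitor heavy chain, was 13.86, 13.31 and 13.79 in low B, against 13.61, 13.45 and 13.36 in low A and 13.23, 12.997 and 13.01 in low C (limma, adjusted p = 0.439). Low C held the 3 lowest values here. At high altitude it was 13.76, 13.57 and 13.67 in A, 13.91, 13.56 and 13.79 in B, and 13.54, 13.11 and 13.20 in C (adjusted p = 0.386), again with location C lowest. Il1rn was 6.85, 6.71 and 6.90 in low B, against 6.75, 6.29 and 6.52 in low A and 6.35, 6.49 and 6.45 in low C. Its high location means were 6.68 in A, 6.59 in B and 6.59 in C. Hpx was 14.28, 14.23 and 14.16 in low B, against 14.19, 14.09 and 14.0025 in low A and 13.92, 14.05 and 14.02 in low C (adjusted p = 0.735).

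**Figure D2:**
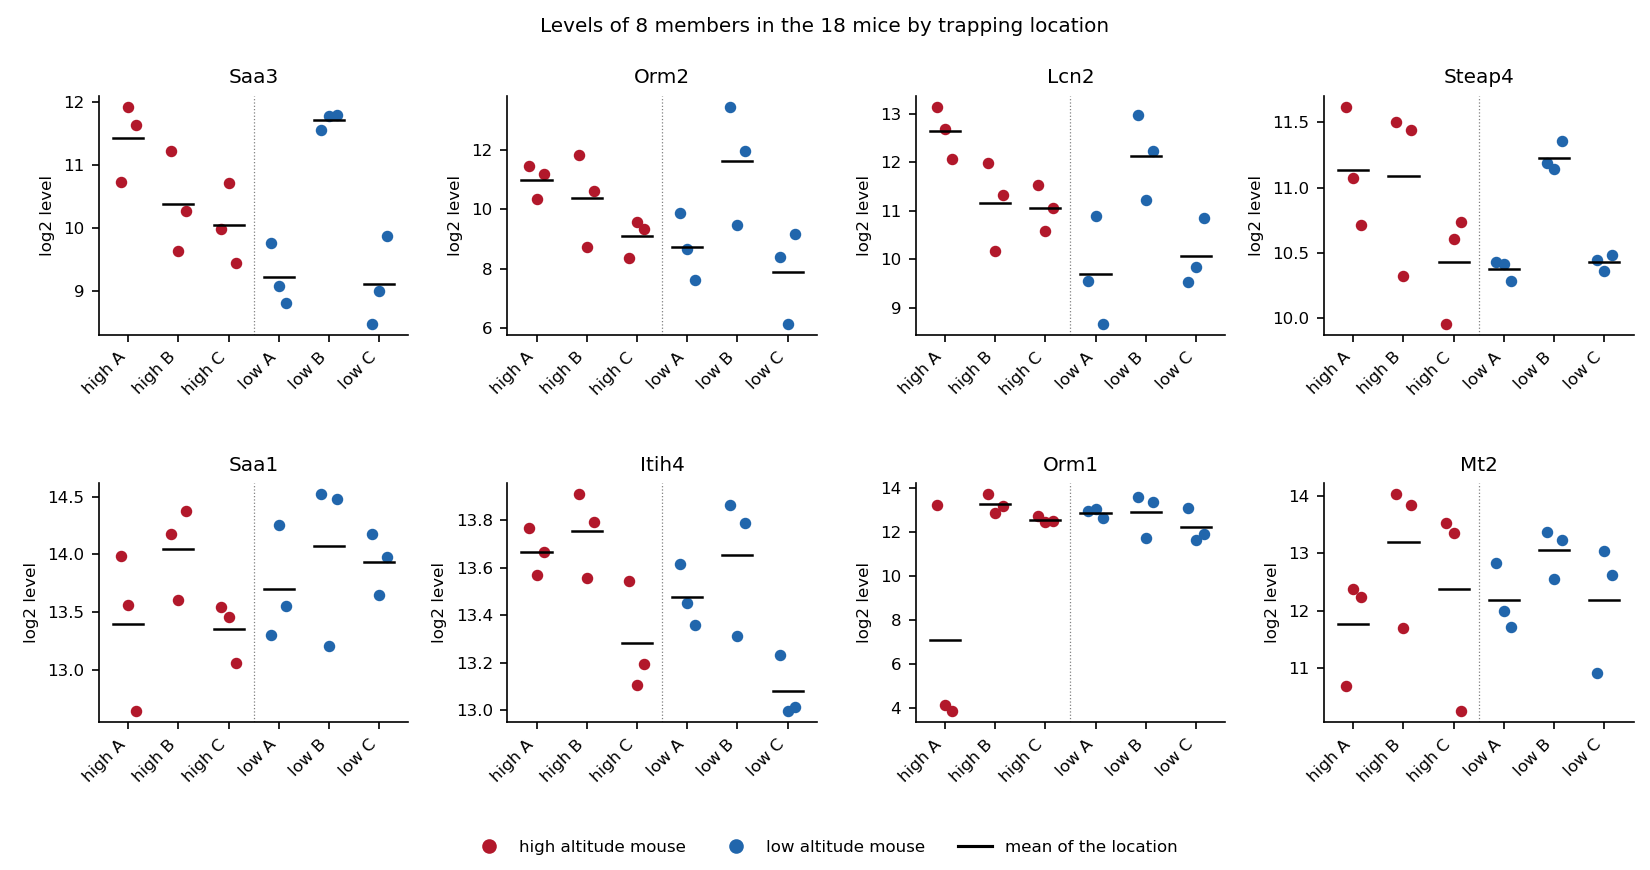
Each panel gives the log2 level of 1 gene (vertical axis) in the 18 mice by trapping location (horizontal axis, high locations left of low ones), with points for mice and lines for location means. The 3 mice of low B are the highest low altitude mice for Saa3, Lcn2 and Steap4, and mice A2 and A4 of high A lie near 4 for Orm1.

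Macrophage markers also had their highest location means in low B and high A for most genes of the list. Of 14 Kupffer cell and macrophage markers, 14 had a higher mean in low B than over low A and C, by a median of 0.51, and 14 had a higher mean in high A than over high B and C, by a median of 0.62. In high B, where 25 of the 34 members were higher than over high A and C, 0 of the 14 markers were, with a median difference of -0.51. Over all genes, 50.2% were higher in low B, 44.8% in high A and 52.1% in high B. The mean of the 14 markers per mouse ran between 9.23 and 9.55 in low B, against 8.70 to 9.12 in low A and 8.43 to 8.54 in low C, and between 9.31 and 9.92 in high A, against 8.53 to 9.09 in high B and 8.76 to 9.73 in high C. In the F tests, 11 of the 14 had an unadjusted p under 0.05 among low locations and 9 of 14 among high locations, against 6.68% and 8.91% of all genes, and 0 passed after adjustment. Marco, a scavenger receptor of macrophages, was 9.12 in low B, 6.84 in low A and 7.53 in low C as location means. All 14 of these markers were above the median gene. In high A, T and NK cell markers were also higher, in 11 of 12 measured by a median of 0.53, and their mean per mouse ran between 6.38 and 6.57 in high A, against 5.72 to 5.95 in high B and 5.67 to 5.90 in high C. Among high locations 7 of the 12 had an unadjusted p under 0.05 and 2, Ccl5 and Nkg7, passed limma's F test. Only 3 of these 12 markers were above the median gene, and Nkg7, at a mean of 5.94, was below it. In low B 10 of the 12 were higher, by a median of 0.16, and of 8 stellate cell markers 7 were higher in high A, by a median of 0.23. Endothelial markers were higher in low B in 6 of 8, by a median of 0.19. Monocyte and cholangiocyte markers were higher there in 4 of 5 each, by medians of 0.16 and 0.11. Of 10 hepatocyte markers, 1 was higher in low B, with a median of -0.080, and 6 were higher in high A, with a median of 0.025. The part of these cells in the Saa3, Lcn2 and Orm2 results was not tested, and more cells of a type and more RNA per cell cannot be told apart in bulk tissue.

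Neutrophils carry Lcn2 in their granules. Of 10 neutrophil markers measured, 4 were above the median gene, and 8 of 10 were higher in low B than over low A and C, by a median of 0.065. S100a8 and S100a9, which monocytes also express, were 7.97 and 7.78 in low B, against 7.23 and 7.03 in low A and 6.48 and 6.20 in low C. The granule genes Camp, Ltf, Mpo and Mmp8 were dim, between percentiles 24.0 and 33.0 of all genes by level. The list mean per mouse ran between 5.98 and 6.13 in low B, against 5.78 to 6.02 in low A and 5.60 to 5.75 in low C, and in high A 5 of 10 were higher than over high B and C, by a median of 0.0042, with list means of 5.804 to 6.16 in high A, against 5.89 to 6.07 in high B and 5.84 to 5.96 in high C. The part of neutrophils in the Lcn2 result was not tested.

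**Figure D3:**
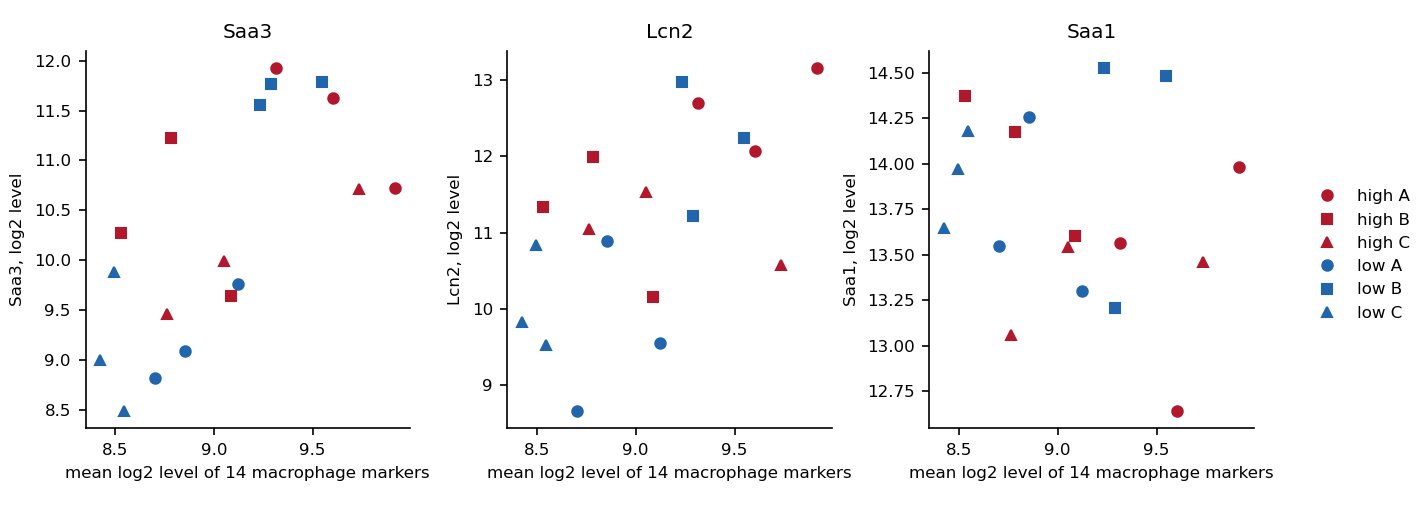
Panels plot the log2 level of Saa3, Lcn2 and Saa1 (vertical axis) against the mean log2 level of 14 macrophage markers (horizontal axis) in 18 mice, with colour for altitude and symbols for location. The mice of high A and low B lie to the right of most mice of their altitude and high for Saa3 and Lcn2, but Saa1 in low B runs between 13.21 and 14.52.

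Among high locations, Cebpd, Il1r1 and Orm3 also had an unadjusted p under 0.05, with high B rather than high A as the highest mean. Cebpd, a transcription factor induced by interleukin-6, was 7.87, 9.11 and 7.79 in high A, 9.95, 8.44 and 9.98 in high B, and 8.87, 8.67 and 7.94 in high C (limma, adjusted p = 0.560). Mice B1 and B3 were the highest and mouse B2 was below A2. Il1r1 was 10.37, 10.61 and 9.43 in high A, 10.36, 9.76 and 10.63 in high B, and 9.30, 9.78 and 9.14 in high C (limma, adjusted p = 0.525). Orm3 was 8.58, 6.54 and 6.53 in high A, 9.10, 8.47 and 9.82 in high B, and 8.89, 8.03 and 8.97 in high C (limma, adjusted p = 0.464). The Actb 3 prime minus 5 prime difference averaged 1.70 in high B, against 1.19 in high A and 1.30 in high C. Its part in the high B values was not tested.

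The lowest values of Orm1 and Orm3 at high altitude came from the same mice. Orm1 was 13.25 in high A1 but 4.13 in high A2 and 3.83 in high A4, against 12.47 to 13.74 in the other 6 high altitude mice and 11.64 to 13.57 in the 9 low altitude mice. In mice A2 and A4 only 25.4% and 19.0% of that array's probe sets were lower, so the signal was near the floor, whereas in the other 16 mice at least 98.2% were lower. The largest step between neighbouring mice in the sorted values was 7.51 log2 units as measured, a lower bound because its lower side was near the floor. Among the measured steps of the 18193 named genes it was first, and the next was 5.65 for the iron hormone gene Hamp. This pattern was picked out after the values were seen, and Orm1 has a single probe set here. Whether the low signal was low Orm1 RNA or RNA that these probes do not bind was not tested. The same 2 mice had 10.36 and 11.18 for Orm2, within the range of the others, and 14.54 and 14.47 for Hp. Among high locations Orm1 had an adjusted p of 0.163 in limma's F test. The adjusted p was 6.93e-08 without mouse A1, and 0.476 and 0.530 without mouse A2 and without mouse A4.

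Co-variation of these genes across mice was examined next. Between mice of 1 location, that is in deviations from location means, 29 of the 561 pairs of members, or 5.17%, correlated above 0.7, against 1.41% of all pairs of named genes. Below -0.7 were 0 pairs of members, against 1.24% of all gene pairs, and the median correlation was 0.27 for members and 0.0040 for all pairs. The set of all pairs was not matched to the members, whose median percentile among genes was 98.4 by level and 93.6 by SD. Pairs of neighbouring genes, such as Saa1 with Saa2 and Mt1 with Mt2, are counted among the members' pairs. The part of level, spread and shared probe signal in the higher share was not tested. These correlations describe 18 arrays that share 6 location means, and genes are not independent replicates. The closest pairs were Saa1 with Saa2 (0.99), Mt1 with Mt2 (0.96), Cebpd with Cebpb (0.88), Fgg with Serpina3n (0.87), Itih4 with Serpina3n (0.86), Itih3 with Itih4 (0.84), Il6st with Stat3 (0.82) and Saa1 with Lrg1 (0.82). Other probe sets of Il6st above the median level correlated with the one used at only 0.199, 0.541 and 0.624 over the 18 mice. For Stat3 another such probe set did so at 0.536. Mt2 joined the C/EBP factors, at 0.81 with Cebpb and 0.76 with Cebpd, and Saa3 was closest to Mt2, at 0.76. Ccl2, the member below the median gene, was the most opposed member for many of the others. Among these were Itih4, Il6st and Mt2, at -0.68, -0.66 and -0.64, and Saa1, Saa2 and Fgb, at -0.42, -0.47 and -0.60.

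**Figure D4:**
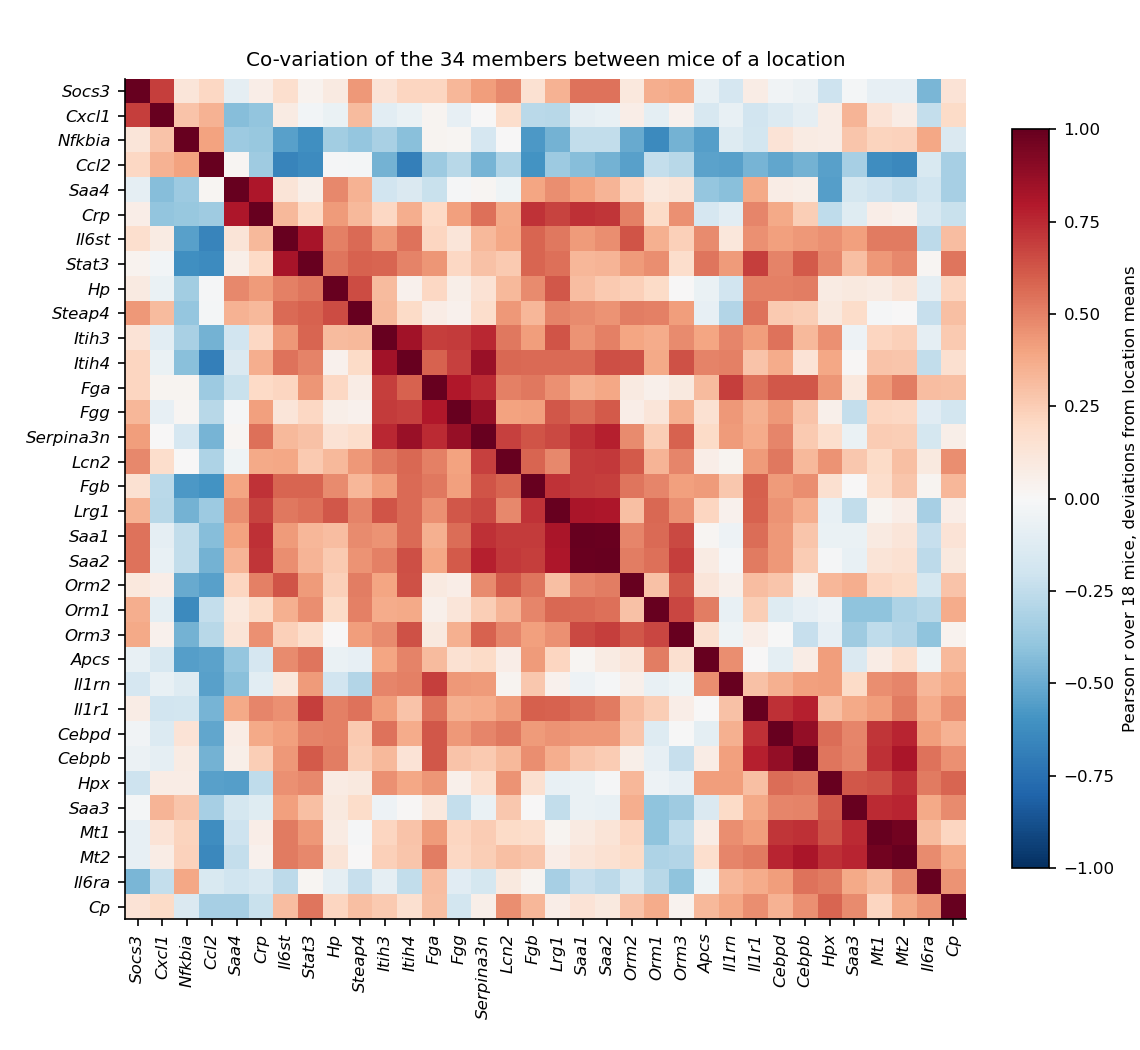
The map gives Pearson's r of each pair among the 34 genes over 18 mice, in deviations from location means, with red above 0, blue below 0, and genes ordered by similarity. Saa1, Saa2, Lrg1 and Serpina3n fall in a block of high correlation, as do Mt1, Mt2, Cebpb and Cebpd, and Saa3 is near the metallothioneins and away from Saa1.

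A list of 24 pairs was drawn from known relations, but with earlier results of these data known. It was tested by permuting mice, and 6 pairs passed an adjusted p of 0.05 over the 24. These p-values are therefore not those of a list fixed before the data were seen. The permutations treat the 18 mice as exchangeable, so differences between locations enter these p-values, and r in deviations from location means is given beside the pairs that passed. Saa1 and Saa2 had Pearson's r = 0.992 and Spearman's rho = 0.977 over 18 mice, each with a permutation p of 1e-05, the smallest that 100000 resamples can give (adjusted p = 0.00012). Within the 9 high altitude mice r was 0.991, within the 9 low altitude mice 0.993, and it was 0.991 without the pair of mice farthest from the median of Saa1 and 0.991 in deviations from location means. The 2 genes are near-identical copies whose probes may cross-hybridise, so their separate levels are uncertain. Mt1 and Mt2 had r = 0.952 and rho = 0.990 (permutation p = 1e-05 each, adjusted p = 0.00012), with r = 0.984 at high altitude, 0.925 at low altitude, 0.930 without the 2 mice farthest from the median and 0.964 in deviations from location means. These were the 2 pairs that passed within each altitude as well. For Mt2 the mice high A1 and C3, at 10.70 and 10.25, were the lowest, and high B1 and B3, at 14.03 and 13.84, were the highest.

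The other 4 pairs passed over 18 mice but not in each altitude alone. Fga and Fgg had r = 0.795 and rho = 0.767 (permutation p = 0.00015 and 0.00045, adjusted p = 0.0012 and 0.0036), with r = 0.964 at high altitude, 0.633 at low altitude, 0.880 without the 2 farthest mice and 0.803 in deviations from location means. Fga and Fgb had r = 0.579 and rho = 0.523 (permutation p = 0.0113 and 0.0283, adjusted p = 0.0454 and 0.0756), with r = 0.410 at high altitude and 0.754 at low altitude, 0.583 without the 2 farthest mice and 0.526 in deviations from location means. Steap4 and Lcn2 had r = 0.705 and rho = 0.717 (permutation p = 0.00134 and 0.00131, adjusted p = 0.00804 and 0.00786), with r = 0.593 at high altitude, 0.858 at low altitude and 0.628 without the 2 farthest mice. For this pair r was 0.437 in deviations from location means, so part of the relation lay between locations.

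Saa1 and Socs3 had r = 0.597 and rho = 0.507 (permutation p = 0.00987 and 0.0339, adjusted p = 0.0454 and 0.0813), with r = 0.821 at high altitude, 0.357 at low altitude, 0.675 without the 2 farthest mice and 0.545 in deviations from location means. In contrast Saa1 and Saa3, whose genes are close neighbours, had r = -0.023 and rho = 0.0072 (permutation p = 0.926 and 0.981), with r = -0.068 at high altitude, 0.157 at low altitude and 0.043 without the 2 farthest mice. Stat3 and Socs3, its target and feedback inhibitor, had r = 0.156 and rho = 0.164 over 18 mice (permutation p = 0.532 and 0.515). Split by altitude, r was 0.710 at high altitude and -0.431 at low altitude (exact permutation p = 0.0395 and 0.236, adjusted p = 0.135 and 0.417). Socs3 and Cebpd had r = 0.084 and rho = 0.011 over 18 mice (permutation p = 0.737 and 0.967), and r was 0.642 at high altitude and -0.610 at low altitude (exact permutation p = 0.0670 and 0.0806, adjusted p = 0.193 and 0.219). The difference between altitudes was not tested for either pair.

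**Figure D5:**
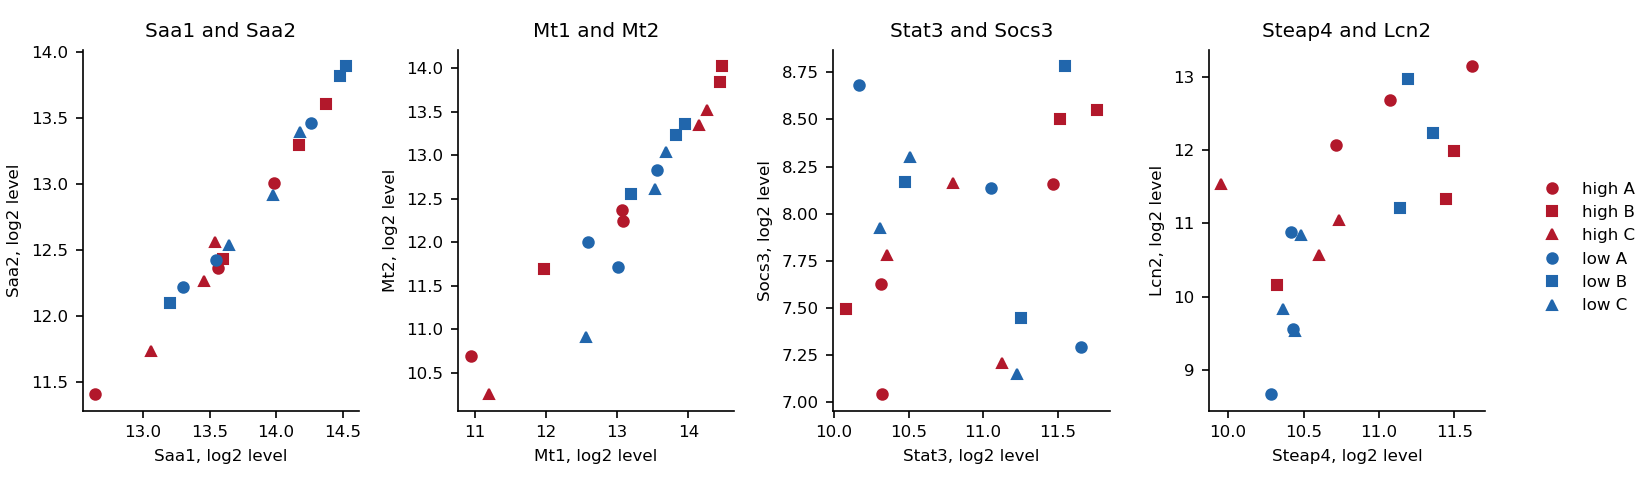
Each panel plots the log2 levels of 2 genes against each other in 18 mice, with colour for altitude and symbols for location. Saa1 with Saa2 (r = 0.992) and Mt1 with Mt2 (r = 0.952) lie close to a line in both altitudes, whereas Stat3 with Socs3 has r = 0.710 at high altitude and -0.431 at low altitude.

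The other 18 pairs did not pass by Pearson's r over 18 mice after adjustment over the 24. Saa1 and its inducer Cebpd had r = 0.445 and rho = 0.391 (permutation p = 0.0632 and 0.109), and r was 0.741 at high altitude, 0.232 at low altitude and 0.326 without the 2 farthest mice. Saa1 and Stat3 had r = 0.380 and rho = 0.267 (permutation p = 0.120 and 0.283), with r = 0.754 at high altitude and -0.069 at low altitude. Saa1 and the interleukin-1 beta gene Il1b had r = -0.530 and rho = -0.558 (permutation p = 0.0223 and 0.0169, adjusted p = 0.0668 and 0.0508). Without the 2 farthest mice, high A4 and low B1, r was -0.232. Lcn2 and S100a8, a neutrophil and monocyte gene, had r = 0.487 and rho = 0.562 (permutation p = 0.0402 and 0.0162, adjusted p = 0.0965 and 0.0508), with r = 0.613 at high altitude, 0.444 at low altitude and 0.250 in deviations from location means. Mt2 and the glucocorticoid target Fkbp5 had r = 0.555 and rho = 0.606 (permutation p = 0.0168 and 0.00916, adjusted p = 0.0577 and 0.0440), so this pair passed by rho and missed by r. Within altitudes its r was 0.627 at high altitude and 0.572 at low altitude.

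Among named genes outside the set, those whose deviations from location means were most like those of Saa1 were Metap1 (r = 0.942), Fbln7 (0.891), C6 (0.886), Rpap2 (0.881) and Aars (0.869). For Lcn2 they were Dlg1 (0.829), Angel2 (0.817), Trio (0.801), Usp48 (0.801) and Map2k4 (0.801). For Mt2 they were Akirin2 (0.876), St3gal5 (0.868), Tsc1 (0.866), Chaserr (0.863) and Crebrf (0.856). These are the highest values over 18 mice out of all genes searched and are given as a description.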

How the data were processed

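Liver RNA of 18 wild male mice was labelled with biotin and hybridised to Affymetrix mouse arrays, 1 array per mouse, per the labels' protocols. The deposited log2 values came from RMA and affy, per the submitters' processing notes, and no version of either is given in the sources used here. RMA compresses dim probe sets towards a floor. With no detection calls, scan dates or genome build in those sources, batches by date were not looked for and no coordinates are printed.

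Of 45101 probe sets, 34945 had 1 gene symbol in GEO's platform annotation, 932 had several, 9160 were not named and 64 were controls. For each gene the brightest probe set naming it alone was used, and dim genes were kept. Among the members, 25 other single-gene probe sets above the median level, of 13 genes, correlated with the one used at 0.199 to 0.976 (median 0.815) over the 18 mice, and 19 of 25 had the same sign of altitude difference.

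Altitude was fitted in limma 3.58.1 (R 4.3.3), with location as a random block at a consensus correlation of 0.00586 and a mean-variance trend. Locations were compared by its moderated F test in a fit of 6 location means. Both were adjusted by Benjamini-Hochberg over all 18193 genes at 0.05 and run on simulated data. There genes were drawn independently and, for the altitude test, mice of a location shared nothing. The simulation thus cannot show error rates where mice of a location are alike. Correlations over mice used permutation tests in Python 3.11.15, two-sided, exact within an altitude. Intervals are 95% intervals from limma. The number of arrays limits the precision.

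The members, gene lists, marker lists and pairs were chosen with earlier results of these data known. Named in full were members called in any comparison, those with an unadjusted p under 0.05 in any, and the 8 with the largest SD. Outside the set, called pathway genes, up to 4 genes per pathway list with the smallest altitude p, and the 5 genes most like Saa1, Lcn2 and Mt2 were named; Marco, Jchain, Ighm, Ccl5, Nkg7, S100a8, S100a9, Camp, Ltf, Mpo, Mmp8, Hamp and the Orm1 pattern were singled out after their values were seen. Alternatives covered normalization, centring, level filter, gene rule, moderation, array weights, RNA integrity, location, mouse number and leaving out each mouse or location.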

Additional observations from a re-analysis of the deposited data

Results flagged for a closer look

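Ccl2, the monocyte chemokine gene, was 5.68 in high altitude mouse C3, against 5.12 to 5.396 in the other 8 high altitude mice and 5.08 to 5.67 in the low altitude mice. Its gap to the next mouse was 0.513 of the group's range, above Dixon's 95% critical value for 9 samples. Of the 68 groups of 9 values looked at (34 genes at 2 altitudes), 1 was picked out in this way, and chance picks out about 1 in 20 groups. Ccl2 was the only member whose probe set lay below the median gene.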

How the results depend on the processing

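Between altitudes 0 of the 34 genes passed in any of the 35 settings tried, with a lowest adjusted p of 0.117 over 1189 recomputed values; 88 of these values in 18 genes changed sign, with 0 past the threshold. The difference of Il6ra was -0.03 with the probe set of largest interquartile range, against 0.50. Over all named genes 66 were called between altitudes. This count was 0 with 1 mean per location, a design of 3 against 3 (1617 at an unadjusted p under 0.05), 35 with mouse number as a replicate block, 135 with array weights, 34, 100, 30 and 34 without locations high A, high B, low B and low C, and 19 to 84 leaving out 1 mouse. Between high locations 55 genes were called, and 26 among genes above the median level, 281 with array weights, 18 with the RNA integrity covariate and 28 to 70 leaving out 1 mouse. Of the 34 genes, 1 (Orm1) was called there with array weights (adjusted p = 0.0247), and 0 to 1 leaving out 1 mouse. Between low locations 13 genes were called, and 7 above the median level, 20 with the probe set of largest interquartile range, 50 with array weights, 6 with the RNA integrity covariate and 4 to 17 leaving out 1 mouse. Of the 34 genes, 1 (Saa3) was called there, 0 with the replicate block (adjusted p = 0.119), 3 with array weights (Saa3, Orm2 and Lcn2) and 0 to 1 leaving out 1 mouse. The causes of these shifts were not tested. Over all genes, mice of the same number in other locations did not deviate together on average. Their mean correlation of deviations was -0.014 over 40 pairs, against 0.0065 over 95 pairs of different numbers. Deviations in a location sum to 0, which ties these means to each other. A mean over all genes also cannot show whether mouse number mattered for some genes. The loss of the Saa3 call with the replicate block is therefore not set aside. The number of mice limits these results, and signal near the array floor limits Il6 and the lowest Orm1 values.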
